A study of Mus musculus with 6 samples.

Results

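Distal mouse chromosome 4 was taken here as every non-control array probe that starts at or past 114000000 on chromosome 4 of the mm7 build, as placed by the deposited scanner file of the denser array design. On that design 4700 of 232626 mapped probes met the rule, out of 13482 on chromosome 4. The sparser design was joined by probe name and held 1187 of its 41845 mapped probes in the stretch. The first probe started at 114008263 and the last, which is also the last of the chromosome, ended at 155174773, a span of 41.2 Mb. Probes were 60 bases long for the most part and lay a median of 6762 bp apart. The median GC content of their sequences was 36.7%, the same as over all autosomal probes.

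The series measured DNA copy number by array comparative genomic hybridisation in asbestos-induced mesothelioma of Arf knock-out mice. Genomic DNA from 5 tumours, titled ARF-129, ARF-128, ARF-112, ARF-110 and ARF-104, was labelled with Cy5 and hybridised against Cy3-labelled DNA of the C57BL/6J mouse strain on 6 arrays. The labels call 4 of the tumours primary malignant mesothelioma cells and give no cell type for ARF-104. The series design speaks of 4 Arf(+/-) mice, and which of the 5 titles lies outside those mice is not given. ARF-110 was measured on the sparser design, ARF-104, ARF-112 and ARF-129 on the denser one, and ARF-128 on both. ARF-128 was counted as 1 tumour by its denser array, whose title adds "PlusMinus", a term the labels do not explain. All tumours were taken as a single group, since the labels mark no untreated group and do not give the genotype tumour by tumour. Whether all 5 share a genotype is therefore not known. The only comparison was with the reference, which is 1 DNA source whose own spread is not measured. The strain background of the mice is not given in the labels. Tumour numbers were taken as separate animals.

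The end of mouse chromosome 4 is largely the counterpart of the short arm of human chromosome 1, an arm that is deleted in several human cancers. It holds a group of tumour necrosis factor receptor genes, the p53 relative Trp73, the cell-cycle regulators Cdc20 and E2f2 and several clusters of duplicated genes, among them the Padi, Pla2g2 and Pramel families. In array comparative genomic hybridisation the log2 ratio of tumour over reference signal is near 0 where both hold the same number of copies. Loss of 1 of 2 copies in every cell would give -1 and gain of 1 copy 0.58. A mixture of cells and a change present in all cells cannot be told apart by these ratios.

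The probes that carried the more proximal of the small losses, around the Srarp gene, are printed here in order along the chromosome. A high probe that lay between low ones is printed with them. Isolated low probes named for Kif1b and Trp73, which both designs hold, follow. Other isolated probes fell lower, to -6.94 on the denser ARF-128 array, and are not printed. The sequences are those of the deposited scanner file of the denser design, read 5′ to 3′, with mm7 coordinates.
A_67_P05430494, chr4:140806603-140806662, with no gene name, low in ARF-128 and not in the other tumours that hold it: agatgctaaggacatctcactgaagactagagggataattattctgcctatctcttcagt
A_67_P01007440, chr4:140809480-140809539, with no gene name, low in ARF-112, ARF-128 and ARF-129: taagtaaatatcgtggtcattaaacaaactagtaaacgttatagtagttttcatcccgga
A_67_P05430508, chr4:140813146-140813205, named for Srarp, low in the same tumours: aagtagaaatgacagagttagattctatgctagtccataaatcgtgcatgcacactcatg
A_67_P01007449, chr4:140816235-140816294, with no gene name, above 0 on every array that holds it: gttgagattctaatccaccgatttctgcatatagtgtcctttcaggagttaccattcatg
A_67_P01007454, chr4:140818921-140818980, with no gene name, low in ARF-112 and ARF-128: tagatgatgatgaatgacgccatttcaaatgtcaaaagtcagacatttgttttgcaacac
A_53_P146143, chr4:148202156-148202215, named for Kif1b, the lowest probe shared by both designs: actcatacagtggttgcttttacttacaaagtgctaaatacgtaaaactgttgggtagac
A_53_P157128, chr4:153091587-153091646, the probe of the sparser design named for Trp73: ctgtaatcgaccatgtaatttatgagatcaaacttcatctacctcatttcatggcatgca
"Low" here means a log2 ratio at or below -1. Capitals were kept for cutting sites of AluI (AGCT) and RsaI (GTAC), the enzymes the labels name for digesting the DNA before labelling, searched on both strands since both sites read the same on either. None of the printed probes held one, and neither did all but 2 of the 4700 probes of the stretch (0.0426%), against 77 of 220065 autosomal probes (0.035%). Whether a probe lies in an exon or an intron was not derived here.

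The arrays differed in noise. The SD of the difference between neighbouring autosomal probes, scaled to 1 probe, was 0.15 for ARF-110, 0.36 and 0.39 for ARF-104 and ARF-112, 0.49 for ARF-129, 0.43 on the sparser ARF-128 array and 0.78 on the denser one. The denser ARF-128 array also had the lowest tumour signal, a median of 4.15 times the local background, against 5.78 to 11.1 on the other arrays. Single-probe values of ARF-128 are therefore the least precise of the set, and the sparser array's value is given beside most of those described tumour by tumour. The number of arrays, 6 for 5 tumours, limits the precision of every mean.

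ARF-129 had the lowest mean over the whole distal stretch. The mean log2 ratio over the stretch was -0.03 for ARF-104, -0.06 for ARF-110, 0.02 for ARF-112, -0.19 for ARF-128 and -0.36 for ARF-129, and -0.02 on the sparser ARF-128 array. ARF-129 stood lowest, at 77.9% of the reference signal, and the other 4 tumours stood at 87.9% to 101.4%. With background correction by normexp the mean of ARF-129 shrank to -0.06, still the lowest of the 5. Over the 5 tumours the mean was -0.12 ± 0.15 (SD, n = 5), with p = 0.125 (exact permutation of the signs, two-sided). The smallest p that 5 tumours allow is 0.0625, so this design cannot pass 0.05. Within the scan day that holds ARF-104, ARF-112 and ARF-129 the values ran from -0.36 to 0.02, so the spread within that day was as wide as over all tumours. ARF-110 and the denser ARF-128 array were each scanned on another day.

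Set against the other 8782 probes of the same chromosome, the distal stretch was higher in ARF-104 and ARF-129 by more than 0.1, and differed by less than that in the other 3 tumours. The rest of chromosome 4 had a mean of -0.28 for ARF-104, -0.11 for ARF-110, 0.02 for ARF-112, -0.12 for ARF-128 and -0.54 for ARF-129. The distal stretch minus the rest was 0.26 for ARF-104, 0.06 for ARF-110, 0.00 for ARF-112, -0.07 for ARF-128 and 0.18 for ARF-129. The mean of these differences was 0.09 ± 0.13 (SD, n = 5), with p = 0.3125 by the same exact permutation of signs, which does not separate it from 0. On the sparser ARF-128 array the rest of the chromosome lay at -0.18, so the difference of that tumour turned positive, and the mean with that array was 0.13, p = 0.0625 in the same exact test. That is the smallest p it can give.

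**Figure D1:**
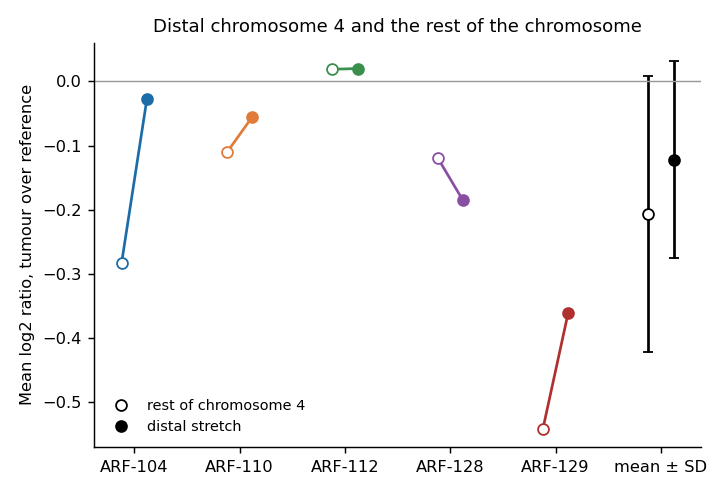
Mean log2 ratio of tumour over reference (y axis) in each of the 5 tumours (x axis), with open circles for the rest of chromosome 4, filled circles for the distal stretch, lines joining both values of a tumour, and black symbols for the mean with bars of 1 SD over the 5 tumours. The distal value lies above the open circle in ARF-104, ARF-110 and ARF-129 and below it in ARF-128, and ARF-129 is the lowest at both.

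Segmentation gave the extent of these levels. Each chromosome of each array was divided by least-squares change points into segments of at least 5 probes, where a mean of at most -0.25 was called a loss and one of at least 0.25 a gain. In ARF-129 a single segment of 4737 probes from 113294507 to the chromosome end, with a mean of -0.36, covered the whole stretch. The last long segment before it in that tumour, from 93599077 to 111400047, lay at -0.49. In ARF-104 a single segment from 113698464 to the end had a mean of -0.03, and the segment before it, from 91861412 to 113648451, one of -0.11. The sparser ARF-128 array also showed a single level, -0.03, the long segments of ARF-110 lay at -0.05 and -0.06, and the denser ARF-128 array showed levels of -0.17 and -0.21 on either side of a short low segment. ARF-112 was the exception, with 9 segments of alternating level.

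Counted in 1 Mb bins, 41 of 42 bins had a value in every tumour; the bin at 121 Mb had none in ARF-110. In ARF-129 all 41 bins were called lost, where 26.6% of autosomal bins were. In ARF-112, 5 bins were lost (15.1% of autosomal bins) and 5 gained (8.99%). In ARF-104, ARF-110 and ARF-128 no bin was called lost (1.19%, 3.76% and 1.79% of autosomal bins) and none gained (17.1%, 13% and 7.89%); ARF-129 had none gained either (20.5%). The 5 bins lost in ARF-112 were lost in ARF-129 too, so 5 bins were lost in at least 2 tumours, where 6.98% of autosomal bins were. No bin was lost in at least 3 tumours (0.872% of autosomal bins). Of the 205 pairs of a bin and a tumour, 46 were lost (22.4%, against 9.69% of all autosomal pairs) and 5 gained (2.44%, against 13.5%). With normexp 1 bin of ARF-129 was lost (0.138% of autosomal bins). With a threshold of 0.15 in place of 0.25 all 41 bins of ARF-128 were lost (3.72%) as well as those of ARF-129 (26.8%). Without ARF-129 the lost pairs fell to 5 (3.05%, against 5.46% of all autosomal pairs). Without ARF-112 no gained pair was left, against 14.6% of all autosomal pairs.

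**Figure D2:**
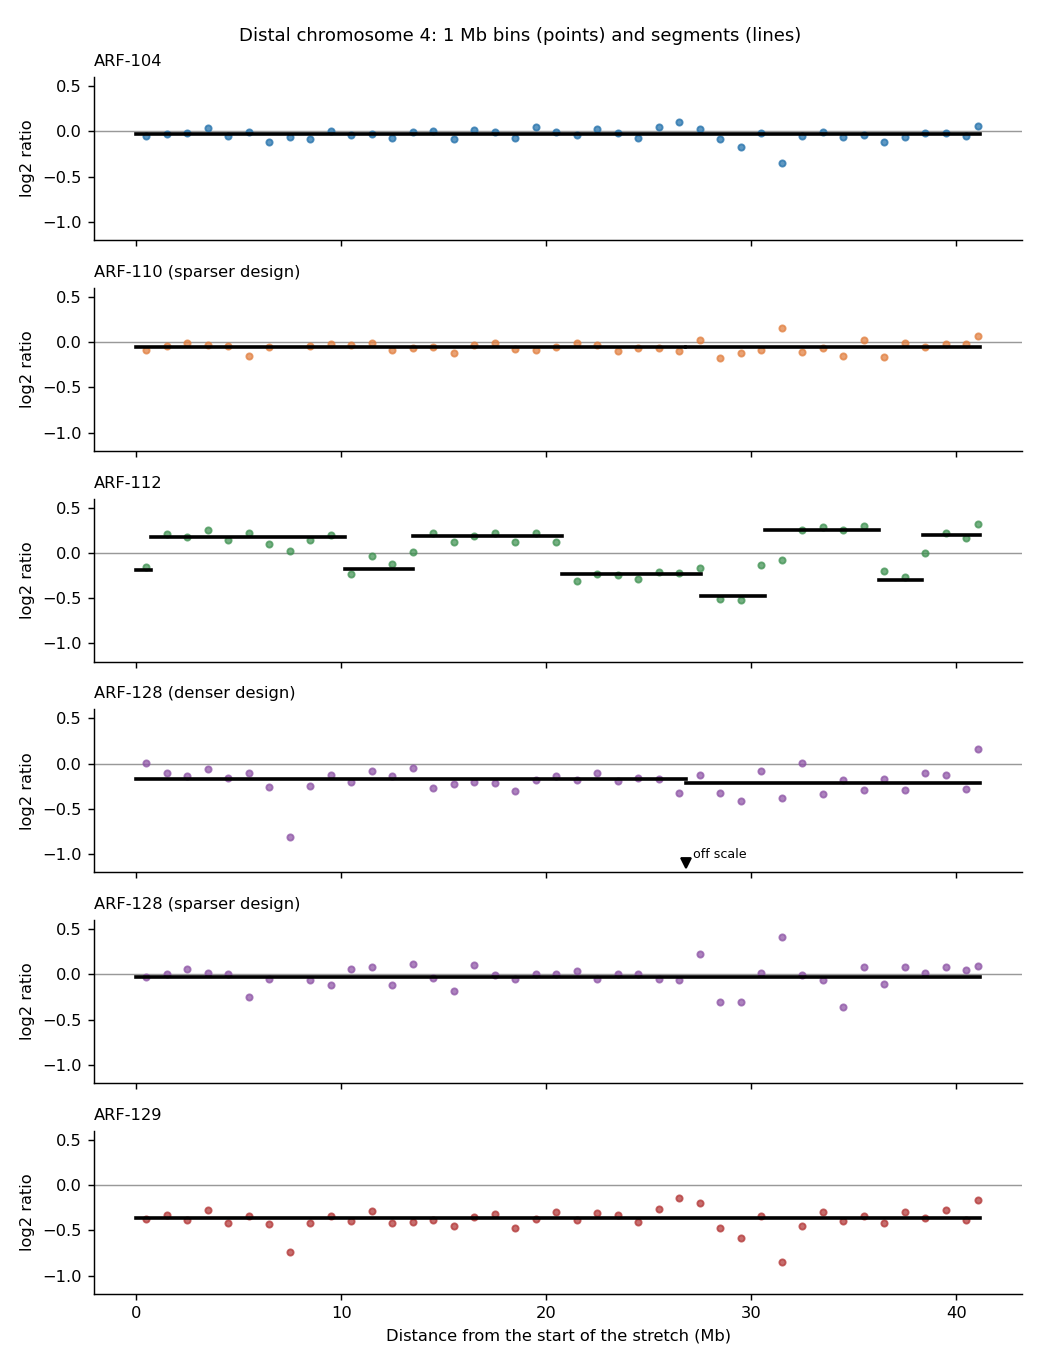
Log2 ratio (y axis) of 1 Mb bins (points) and segment means (black lines) against the distance from the start of the stretch in Mb (x axis), 1 panel per array; a triangle marks the short segment of ARF-128 at -3.58, which is off the scale. ARF-129 runs at -0.36 throughout, ARF-112 alternates between levels, and the other arrays stay at 1 level apart from the short segment.

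ARF-112 had a stepwise profile that no other tumour shared. From the start of the stretch to 114702897 its segment, which begins before the stretch, had a mean of -0.19. It was 0.18 from 114713416 to 124191701, -0.18 to 127511437, 0.19 to 134749642 and -0.24 to 141565600. The lowest level, -0.48, ran from 141573503 to 144668500, and the highest, 0.25, followed directly and ran to 150227440. A second short loss, at -0.29, ran from 150236436 to 152350827 over 2.11 Mb, and the chromosome ended at 0.20. The level thus alternated above and below 0, with the low segments from 134763333 and from 141573503 side by side, and only the 2 lowest and the highest passed the 0.25 threshold.

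The other tumours did not follow those steps, apart from a dip in the segment at 141573503. The 1793 probes of the 5 low segments minus the 2907 probes of the 4 high ones gave -0.46 in ARF-112, which the choice of segments fixes. The same difference was 0.00 for ARF-104, -0.01 for ARF-110, -0.01 for ARF-128, 0.02 on the sparser ARF-128 array and 0.03 in ARF-129. The low and high segments held probes of like composition, with a mean GC content of 37.0% in both. Mixed cells and the copy level of each step cannot be told apart, and what produced the steps was not tested.

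**Figure D3:**
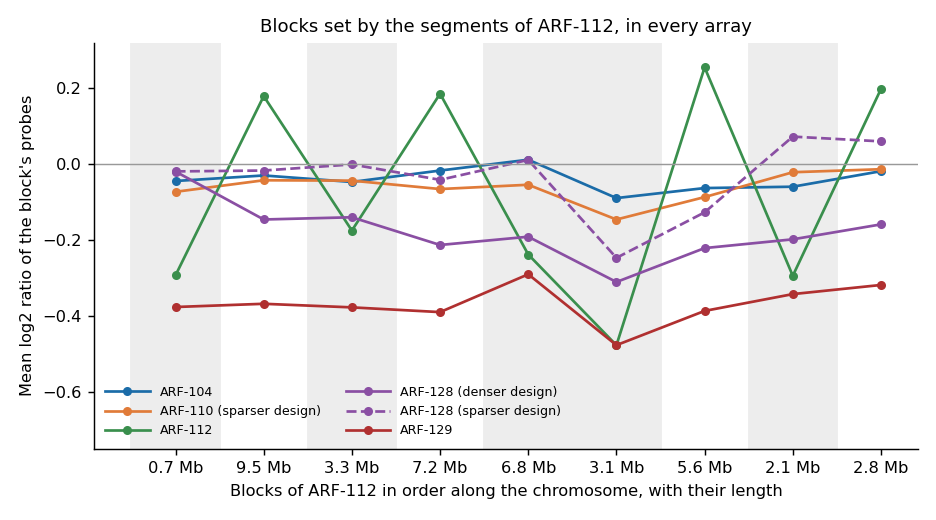
Mean log2 ratio (y axis) of the probes in each of the 9 segments of ARF-112, in order along the chromosome with their lengths in Mb (x axis), for the 6 arrays (lines; dashed for the sparser ARF-128 array); grey bands mark the segments in which ARF-112 is low, and the first point covers only its probes within the stretch. ARF-112 alternates, the other arrays do not follow it, and all 6 lines dip in the 3.1 Mb segment.

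The more distal of the small losses, chr4:141573503-144668500, spans 3.1 Mb and held 238 probes of the denser design and 45 of the sparser one. It was chosen from its values, which are therefore given as a description. The stretch includes Pdpn, which encodes podoplanin, a membrane glycoprotein of mesothelium and lymphatic endothelium. It also includes Tnfrsf1b, the second receptor for tumour necrosis factor, and the Pramel and Oog genes, a duplicated family expressed in germ cells and oocytes. Its mean was -0.09 for ARF-104, -0.15 for ARF-110, -0.48 for ARF-112, -0.31 for ARF-128 and -0.48 for ARF-129. On the sparser ARF-128 array it was -0.25. All 5 tumours were below 0 here, with ARF-112 and ARF-129 lowest and at the same level.

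Since ARF-129 is low throughout, the stretch was also set against the rest of distal chromosome 4 on the same array. That difference was -0.06 for ARF-104, -0.09 for ARF-110, -0.52 for ARF-112, -0.13 for ARF-128 (-0.23 on its sparser array) and -0.12 for ARF-129. Each tumour was lower inside than outside, and ARF-112 was the only one by more than 0.25. With probes of both designs only, ARF-128 turned to 0.09 above the rest. The segmentation called the stretch lost in 2 tumours, in ARF-112 on its own and in ARF-129 as part of the whole stretch. Of the 238 probes, 49 were at or below -1 in ARF-128, 35 each in ARF-112 and ARF-129 and 5 in ARF-104, and of the 45 probes of ARF-110 0 were. Over all distal probes the share at or below -1 was 16.1% in ARF-128, 3.19% in ARF-112, 11.9% in ARF-129, 1.92% in ARF-104 and 0.758% in ARF-110, so the count stood furthest above that share in ARF-112. The mean GC content of the 238 probes was 36.5%.

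Within this stretch the genes were uneven. Probe numbers given for a gene are those of the denser design, and ARF-110 and the sparser ARF-128 array can hold fewer. Oog3, with 2 probes, measured -0.84 for ARF-104, -0.10 for ARF-110, -1.85 for ARF-112, -1.82 for ARF-128 and -1.49 for ARF-129, with -0.73 on the sparser ARF-128 array. In ARF-110 and on the sparser ARF-128 array the value came from A_53_P160177 alone. That probe measured -0.80 in ARF-104, -1.42 in ARF-112, -1.19 on the denser ARF-128 array and -1.45 in ARF-129. ARF-110 was nearest to 0 and ARF-104 lay between it and the others. Pdpn, with 5 probes, measured 0.03, -0.55, -0.55, -0.32 and -0.35 in the same order of tumours, and -0.91 on the sparser ARF-128 array. Tnfrsf1b, with 5 probes, measured 0.11, -0.23, -0.43, -0.38 and -0.19, and -0.00 on the sparser ARF-128 array. Dhrs3, a retinaldehyde reductase, measured 0.27 in ARF-128, 0.11 in ARF-104, and -0.09 and -0.17 in ARF-129 and ARF-112, and had no probe on the sparser design. The duplicated genes Pramel27 and Pramel13 had means over the tumours of 0.46 and -0.06. Probes of such families can bind DNA of several copies, and their values are uncertain for that reason.

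The more proximal of the small losses was the short low segment of the denser ARF-128 array, chr4:140806603-140818980, which spans 0.0124 Mb and held 5 probes of the denser design and 0 of the sparser one. It was also chosen from its values. It covers Srarp and lies between the heart heat-shock gene Hspb7 and Zbtb17, which encodes the MYC partner Miz-1. The mean over its probes was -3.58 in ARF-128 and -1.49 in ARF-112, against -0.33 in ARF-129 and -0.03 in ARF-104. ARF-112 and ARF-128 thus lay far below the rest of the stretch on the same array, by differences of -1.51 and -3.39, and ARF-104 and ARF-129 lay within 0.03 of it.

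The low values were not continuous. On the denser ARF-128 array A_67_P01007440 measured -6.55, the Srarp probe -3.76 and A_67_P01007454 -5.58, a bound since its tumour signal was not well above background, while A_67_P01007449 measured 0.10. The first probe of the segment, A_67_P05430494, measured -2.08 there, -0.37 in ARF-112, 0.42 in ARF-129 and 0.64 in ARF-104. In ARF-112 the other 4 probes measured -3.61, -2.03, -1.81 and 0.39. In ARF-129 they measured -1.11, -1.15, -0.55 and 0.71, and in ARF-104 -0.33, -0.59, -0.35 and 0.50. A_67_P01007449 was the highest of these 4 probes on each of the 4 arrays, and the order of the lower 3 differed between arrays. The sparser design holds none of these probes, so ARF-110 has no value there. Srarp had this 1 probe and entered no test.

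The genes beside the short segment were nearer to 0, but probes with no gene name there were also low. A_67_P05430470, at 140799133, measured -2.07 on the denser ARF-128 array and -1.19 in ARF-112. A_67_P05430525, at 140821766, measured -1.26 and -0.76 in the same order. The next probe, A_67_P05430534 of Zbtb17, measured 1.57 and 0.50, so low and high probes alternated outside the segment as well. Hspb7, with 1 probe, measured 0.40 for ARF-104, -0.24 for ARF-110, -0.10 for ARF-112, 0.85 for ARF-128 and 0.37 for ARF-129, with -0.26 on the sparser ARF-128 array. Zbtb17, with 6 probes, measured -0.01, -0.29, -0.30, -0.36 and -0.33, with -0.34 on the sparser ARF-128 array, and its limma adjusted p was 0.0856. ARF-104 stood apart from the other 4 tumours at this gene. Further to the proximal side, the receptor tyrosine kinase gene Epha2 measured -0.06, 0.08, -0.17, -0.82 and -0.36, with -0.02 on the sparser ARF-128 array. The short segment was called on its own probes in ARF-128, and in ARF-129 it lay in the lost segment over the whole stretch. In ARF-112 it lay within a long segment at -0.24 and was not called.

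**Figure D4:**
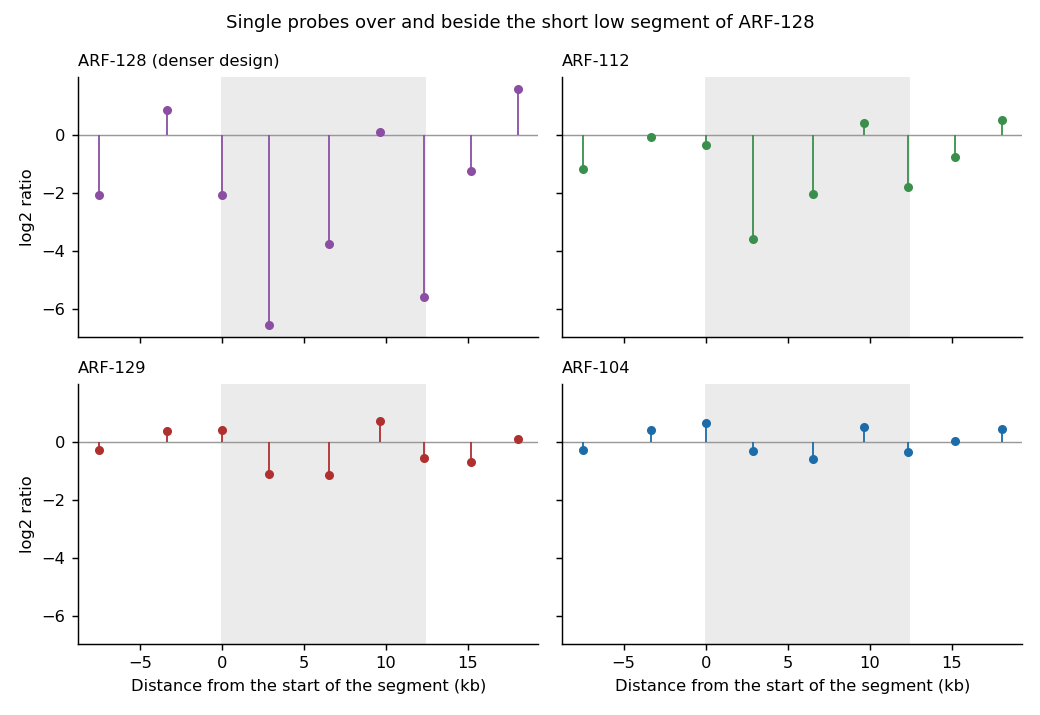
Log2 ratio (y axis) of single probes over and beside the more proximal small loss against the distance in kb from the start of the segment (x axis), 1 panel for each of the 4 arrays of the denser design, with the segment of ARF-128 shaded. Low probes stand between others near or above 0, with the lowest at -6.55 in ARF-128 and -3.61 in ARF-112.

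Single probes fell much lower than any segment. The probe A_53_P146143 in Kif1b, a kinesin motor gene, measured -1.77 in ARF-110, -5.24 on the denser and -5.39 on the sparser ARF-128 array, where its tumour signal was not well above background. In ARF-112, ARF-129 and ARF-104 it measured -0.68, -0.38 and -0.12. Its neighbour 13267 bp to the left measured 1.05 on the denser ARF-128 array and its neighbour 10606 bp to the right -0.30. The gene's mean over 16 probes was -0.15 in ARF-128 on the denser array and -1.57 over its sparser-design probes. A single probe thus decided the sparser array's value of this gene.

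Trp73 showed the same dependence. Its only probe on the sparser design, A_53_P157128, measured -1.22 in ARF-110 and -1.23 on the sparser ARF-128 array. The denser design gave the same probe -2.004 and -1.99 in ARF-128 and ARF-104, and -0.71 and -0.56 in ARF-112 and ARF-129. The gene's mean over 11 probes ran from -0.37 in ARF-129 and -0.32 in ARF-104 to -0.18 in ARF-128 and -0.00 in ARF-112. The low value of ARF-110 therefore rests on a probe that was below the gene's mean in every tumour with the other probes.

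Probes at or below -3 on any array numbered 19. Of these, 17 were on the denser ARF-128 array, 2 on the sparser one, 3 in ARF-129, 2 in ARF-112 and 0 in ARF-104 and ARF-110. On the denser ARF-128 array 6 of the 19 had a tumour signal not well above background, so their values are bounds. The more proximal small loss held 3 of them and the more distal one 5, where the more distal one held 5.06% of the probes of the stretch. The 76 probes that flanked the 19, 2 on each side, had a median of -0.29 on the denser ARF-128 array. The probes on either side were thus not low as a group.

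A low value on 1 ARF-128 array was often not found on the other. Of 1186 probes with a value on both, 235 were at or below -1 on the denser array, 36 on the sparser one and 23 on both. The Pearson correlation of the 2 arrays over these probes was 0.43, against 0.41 over 40276 autosomal probes. At the 23 probes low on both, the other tumours were mostly below 0: the median was -1.15 for ARF-129, -0.99 for ARF-104, and -0.87 and -0.60 for ARF-112 and ARF-110, with at least 22 of 23 below 0 in each. At or below -1 were 16 of the 23 in ARF-129, 9 in ARF-104, 8 in ARF-112 and 4 in ARF-110. Across the 4693 to 4698 probes that each pair shared, the correlation was 0.81 between ARF-104 and ARF-129, 0.76 between ARF-112 and ARF-129 and 0.74 between ARF-104 and ARF-112. These correlations are across probes, which share the reference DNA, the array design and the scan day, and they were as high over the autosomes (0.79, 0.74 and 0.71). The correlations of ARF-110 in the stretch were lower, 0.30 with ARF-104, 0.39 with both ARF-112 and ARF-129 and 0.27 with the denser ARF-128 array (0.15 over the autosomes). With the sparser ARF-128 array ARF-110 correlated at 0.66 (0.51 over the autosomes). Those arrays share the design, the scan day and the software version.

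A test of each 1 Mb bin over the 5 tumours called 1 of 41 bins of the stretch. limma was fitted to the mean log2 ratio of 2179 autosomal bins against 0, with Benjamini-Hochberg adjustment over all of them. The called bin, at 143 Mb in the more distal small loss, measured -0.17 for ARF-104, -0.12 for ARF-110, -0.52 for ARF-112, -0.41 for ARF-128 and -0.58 for ARF-129, with -0.31 on the sparser ARF-128 array. Its mean was -0.36 ± 0.21 (SD, n = 5), limma adjusted p = 0.0493, and it was below 0 in 5 of 5 tumours. Over all autosomal bins 0.642% were called lower and 3.9% higher. No bin of the stretch was called higher by limma. At an unadjusted p under 0.05, 10 of 41 bins were lower and 0 higher, where 306 and 215 of all 2179 bins were. The neighbouring bin at 142 Mb had a mean of -0.31 and a limma adjusted p of 0.0688. Both bins lie in the small loss that was chosen from these same values, so their p-values give it no separate support. The call at 143 Mb was lost without any single tumour, whichever was left out, and with background correction by normexp, loess within arrays or GC regressed out. With the scan day as a random block, 3 bins were called by limma: those at 142, 143 and 150 Mb, with adjusted p of 0.0284, 0.0203 and 0.0466. The estimated correlation within a scan day was -0.13, and a negative value narrows the error of a mean. Bins called lower over all autosomes rose from 14 to 63 with that block.

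Named genes of the stretch numbered 781, and the 647 measured in every tumour were tested; the other 134 had no probe with a value in ARF-110. limma on the mean of each gene's own probes, adjusted over 20745 genes, called 40 genes lower and 17 higher in the stretch. Over all genes 6.68% were called lower and 7.83% higher, so the share lower was near that of all genes and the share higher below it. The median of the gene means was -0.10 in the stretch and -0.02 over all genes tested. Genes below 0 in all 5 tumours numbered 124 (19.2%, against 17.3% of all genes), and genes above 0 in all 5 numbered 48 (7.42%, against 14.4%). At an unadjusted p under 0.05, 151 of the 647 genes were lower and 55 higher, where 3614 and 3602 of all 20745 genes were. With normexp the split was 13 lower and 20 higher in the stretch. Over all genes it went from 1386 lower and 1624 higher to 480 and 1753. The balance between directions thus depends on the background correction over all genes, not in the stretch alone. With the scan day as a random block no gene of the stretch was called by limma, where at an unadjusted p under 0.05 there were 96 lower and 26 higher. No gene of the stretch was called without ARF-104, without ARF-112 or without ARF-129 either. Over all genes there were 0 calls without ARF-112 or ARF-129, and 78 lower and 137 higher of 20750 without ARF-104. Without ARF-110 there were 93 lower and 33 higher of 779 in the stretch, against 2759 and 2848 of 25796 over all genes.

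The higher calls lay in genes with few probes. Of 180 genes with 1 probe, 15 were lower and 13 higher. Of 200 genes with 2 or 3 probes, 11 were lower and 4 higher. Of 267 genes with at least 4 probes, 14 were lower and 0 higher. None of the 17 higher genes had a direct neighbour called higher, and the median over their neighbours was -0.11. Of the 40 lower genes, 8 had a neighbour called lower, and the median over their neighbours was -0.16. When a gene took the mean of the segment over it in place of its own probes, limma called 0 genes of the stretch. At an unadjusted p under 0.05 there were 234 lower and 0 higher. Over all 20022 genes fitted in that way, limma called 0 lower and 677 higher, with 1461 and 1962 at the unadjusted cut.

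The genes with the lowest means among those called and below 0 in all 5 tumours were mostly covered by 1 probe. Id3, an inhibitor of basic helix-loop-helix transcription factors, had 1 probe and measured -1.07 for ARF-104, -0.25 for ARF-110, -1.25 for ARF-112, -1.64 for ARF-128 and -1.56 for ARF-129, with -1.18 on the sparser ARF-128 array. Its mean was -1.15 ± 0.56 (SD, n = 5), limma adjusted p = 0.0146. ARF-110 was nearest to 0 here, as it was at Oog3, which had a mean of -1.22 and a limma adjusted p of 0.0199. Mxra8 and Cptp, a ceramide-1-phosphate transfer protein, had 1 probe each, lay on either side of Dvl1 near the chromosome end and had means of -1.002 and -1.001, where Dvl1, with 3 probes, had -0.26. Guca2a (guanylin), Uts2 (a vasoactive peptide), Padi3, Cort (cortistatin), Gpatch3 and Hpcal4 followed with means from -0.996 to -0.787 and 1 to 3 probes.

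The highest called genes that were above 0 in all 5 tumours also had few probes. Adprhl2, an ADP-ribose hydrolase with 1 probe, measured 0.72 for ARF-104, 0.06 for ARF-110, 1.22 for ARF-112, 1.03 for ARF-128 and 0.76 for ARF-129, with 0.22 on the sparser ARF-128 array. Its mean was 0.76 ± 0.44 (SD, n = 5), limma adjusted p = 0.0214. ARF-129, in which the whole stretch was called lost, was thus above the reference at this probe. Atp6v0b, a subunit of the vacuolar proton pump, Atpif1, an inhibitor of the mitochondrial ATP synthase, Tspan1, Zfp691, Hes2 and the unnamed transcripts AK013916, AK083203, AK007076 and AK135002 had means from 0.44 to 0.64 and 1 or 2 probes. By the segment over it, each of these 10 genes had a mean below 0, as did all 647 tested genes of the stretch. That sign therefore does not set these genes apart.

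**Figure D5:**
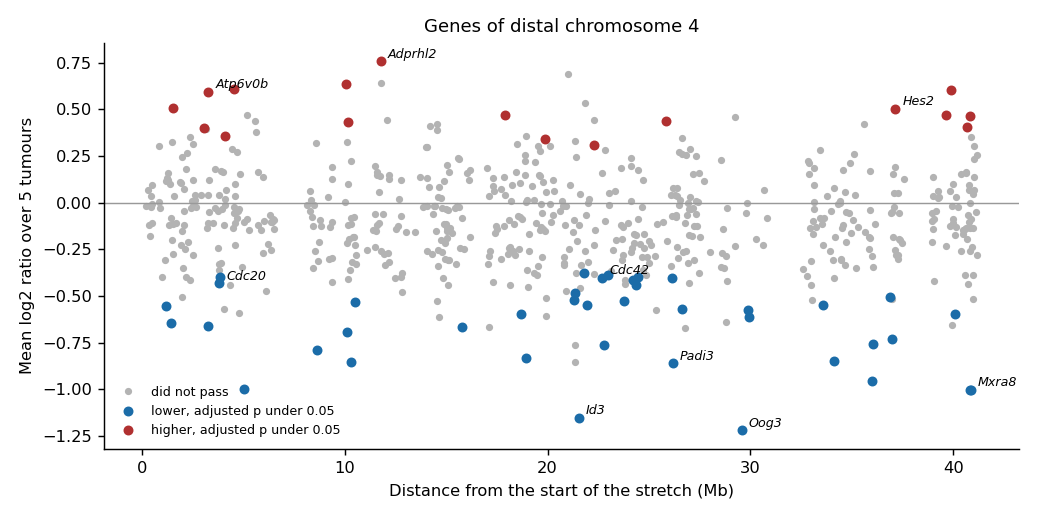
Mean log2 ratio over 5 tumours (y axis) of each tested gene against the distance from the start of the stretch in Mb (x axis), blue for the 40 genes lower and red for the 17 higher at a limma adjusted p under 0.05, grey for genes that did not pass. Called genes lie among genes near 0 along the whole stretch, from Oog3 at -1.22 to Adprhl2 at 0.76.

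Among the tested genes of the stretch, 431 of 647 (66.6%) had a mean below 0, against 52.4% of all genes tested. The counts of the gene lists are to be read against these shares and against the 6.68% and 7.83% of all genes that limma called lower and higher.

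Of 10 genes for tumour necrosis factor receptors and apoptosis executioners, limma called none; 6 had a mean below 0 and the median was -0.06. Tnfrsf14, the receptor for the ligand LIGHT, had 1 probe and measured -0.62 for ARF-104, -0.03 for ARF-110, -0.33 for ARF-112, -1.57 for ARF-128 and -0.72 for ARF-129. On the sparser ARF-128 array that probe measured -0.10, and the limma adjusted p was 0.0555. Dffa, the inhibitor of the caspase-activated DNase, measured -0.30, -0.27, 0.03, -0.32 and -0.66 over 4 probes, with a limma adjusted p of 0.0897. Tnfrsf4, which encodes OX40, was above 0 in every tumour, from 0.05 in ARF-128 to 0.59 in ARF-112. The apoptosis protease gene Casp9 measured 0.08, 0.31, 0.06, -0.65 and 0.06, with 0.16 on the sparser ARF-128 array, so its low value came from 1 array. All 10 genes lay in the lost segment of ARF-129, and 2 in lost segments of ARF-112.

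Candidate tumour suppressors numbered 12 on the stretch, 11 of them tested. limma called none, 8 had a mean below 0 and the median was -0.08. Trp73, described above, had the lowest mean, -0.42 ± 0.47 (SD, n = 5), limma adjusted p = 0.110. Mutyh, a DNA glycosylase of base excision repair, measured -0.24 for ARF-104, -0.03 for ARF-110, -0.31 for ARF-112, -1.10 for ARF-128 and -0.31 for ARF-129, and -0.40 on the sparser ARF-128 array. Errfi1, a feedback inhibitor of the epidermal growth factor receptor, measured -0.15, -0.13, 0.22, -0.63 and -0.55, and 0.12 on the sparser ARF-128 array. Runx3 measured 0.27 in ARF-112 and -0.02 in ARF-104, -0.28 in ARF-128 and -0.38 in ARF-129 over 10 probes and had none on the sparser design. Sdhb, a subunit of succinate dehydrogenase, stayed between -0.19 and 0.06. ARF-129 was the only tumour with a lost segment over these genes, and it covered all 12.

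Among 17 growth-promoting genes limma called 1 lower and 0 higher; 12 had a mean below 0 and the median was -0.12. Both counts were near the shares of 6.68% lower over all genes and 66.6% below 0 over the stretch. The called gene was Cdc42, a small GTPase of the cytoskeleton, with 6 probes: -0.38 for ARF-104, -0.08 for ARF-110, -0.45 for ARF-112, -0.51 for ARF-128 and -0.60 for ARF-129. Its mean was -0.40 ± 0.20 (SD, n = 5), limma adjusted p = 0.0342, and the sparser ARF-128 array gave -0.04. Mycl, a MYC family gene with 1 probe, measured 0.06, -0.15, 0.02, -1.33 and -0.34, and -0.17 on the sparser ARF-128 array. Pik3cd, a catalytic subunit of phosphoinositide 3-kinase, measured -0.27, -0.09, 0.16, -0.92 and -0.54, and -0.25 on the sparser ARF-128 array. Mtor, the growth kinase it acts upstream of, measured 0.03, -0.11, 0.31, -0.40 and -0.23 over 15 probes, and 0.08 on the sparser ARF-128 array, with a limma adjusted p of 0.649. Rragc and Dvl1 had means of -0.30 and -0.26 and were not called; with probes of both designs only, Dvl1 turned to 0.21.

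Of 15 genes of the cell cycle and genome maintenance, limma called 1 lower and 0 higher; 11 had a mean below 0 and the median was -0.12. Cdc20, the activator of the anaphase-promoting complex, had 1 probe and measured -0.49 for ARF-104, -0.26 for ARF-110, -0.45 for ARF-112, -0.44 for ARF-128 and -0.52 for ARF-129. Its mean was -0.43 ± 0.10 (SD, n = 5), limma adjusted p = 0.0199, with -0.74 on the sparser ARF-128 array. The 5 tumours lay close together at this probe. Rpa2, a subunit of the single-strand DNA-binding complex, measured -0.10, 0.00, 0.14, -1.40 and -0.85, and -0.09 on the sparser ARF-128 array. The checkpoint gene Clspn averaged -0.33 (limma adjusted p = 0.0587) and the chromosomal passenger gene Cdca8 -0.32 (limma adjusted p = 0.0617). Rad54l, a recombination gene, was above 0 in every tumour, from 0.02 in ARF-110 to 0.57 in ARF-112.

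Clustered multigene families had 19 genes on the stretch, 16 of them tested. limma called 3 lower, Oog3, Padi3 and Padi4, and 0 higher; 12 had a mean below 0, where 66.6% of the tested genes of the stretch did, and the median was -0.16. Padi4, a peptidylarginine deiminase of neutrophils with 5 probes, measured -0.22 for ARF-104, -0.21 for ARF-110, -0.48 for ARF-112, -0.58 for ARF-128 and -0.52 for ARF-129, limma adjusted p = 0.0314, with -0.34 on the sparser ARF-128 array. Padi3, its relative of hair follicles with 3 probes, measured -0.36, -0.15, -0.78, -2.06 and -0.95, limma adjusted p = 0.0472, with -0.54 on the sparser ARF-128 array. The fatty-acid hydroxylase relatives Cyp4b1 and Cyp4a14 had means of -0.40 and 0.31. Pla2g2f, a secreted phospholipase, had a mean of -0.27 that turned to 0.09 with probes of both designs only. All 19 genes lay in the lost segment of ARF-129 and 3 in lost segments of ARF-112.

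A list of 15 genes around the more proximal small loss held the same Padi3 and Padi4 calls and no other; 10 had a mean below 0 and the median was -0.11. Rcc2, a mitotic spindle gene, measured -0.11 for ARF-104, -0.14 for ARF-110, -0.41 for ARF-112, -0.62 for ARF-128 and -0.42 for ARF-129, with -0.62 on the sparser ARF-128 array and a limma adjusted p of 0.0585. Necap2, an endocytosis gene, measured 0.24, -0.46, -0.72, -0.41 and -0.14, lowest in ARF-112, and -0.51 on the sparser ARF-128 array. Around the more distal small loss, 8 listed genes lay on the stretch and 7 were tested; limma called none, 4 had a mean below 0 and the median was -0.03. There Pdpn had the lowest mean, -0.35 ± 0.24 (SD, n = 5), limma adjusted p = 0.0609. Kazn, on the proximal side of the loss, had a mean of 0.16. It turned to -0.18 by the segment over it, where all 647 tested genes of the stretch were below 0.

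Of 9 Notch, Wnt and BMP developmental genes on the stretch, 8 were tested; limma called Id3 lower and Hes2 higher, 3 had a mean below 0 and the median was 0.03. Hes2, a repressor of the hairy and enhancer of split family with 1 probe, measured 0.77 for ARF-104, 0.01 for ARF-110, 0.34 for ARF-112, 0.88 for ARF-128 and 0.50 for ARF-129, limma adjusted p = 0.0409. It lay in the 2.11 Mb lost segment of ARF-112, whose mean was -0.29, and its single probe was above 0 there. Wnt4, Nbl1 and Hes3 had means of 0.16, -0.08 and 0.05 and were not called; Nbl1 turned to 0.03 with probes of both designs only.

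That 2.11 Mb segment of ARF-112 held 28 named genes, and the first 8 by position showed how uneven it was. DX574529, with 5 probes, measured -0.74 in ARF-112 and -0.78 in ARF-129, limma adjusted p = 0.0384. Phf13, a chromatin reader with 1 probe, measured -0.65 in ARF-112 and -1.68 in ARF-128, limma adjusted p = 0.0393, but -0.10 on the sparser ARF-128 array. Klhl21, an adaptor of a ubiquitin ligase with 1 probe on the denser design, measured -2.50 in ARF-128 and from -1.48 to -1.17 in the other 3 tumours on that design. AK076589, with 37 probes, measured -0.45 in ARF-129 and -0.36 in ARF-112, against -0.05 and 0.08 in ARF-104 and ARF-128. Dnajc11, AK211797 and AK122383 had means between -0.11 and -0.05, and Thap3 -0.52 with 1 probe. Just outside, AK147482 measured 0.04 and AK132360 0.15 in ARF-112.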

How the data were processed

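Copy number was measured by 2-colour hybridisation of tumour DNA (Cy5) against reference DNA (Cy3) on 6 arrays of 2 Agilent designs. Per the file headers, Agilent Feature Extraction 8.5.1.1 (sparser design), 9.1.3.1 (ARF-104, ARF-112 and ARF-129) and 9.5.3.1 (denser ARF-128 array) gave the deposited processed intensity of each channel, background-subtracted and scaled by 1 linear dye factor; the raw mean and background intensities were deposited too. The deposited LogRatio is log10 of red over green. The deposited series tables hold log10 ratios for the sparser and log2 ratios for the denser design, found by their slopes against the scanner values; the sources used here do not give how they were made. No per-sample column was left unmapped.

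From these, log2 of red over green processed intensity was computed here, with control spots and spots marked as outliers left out, and centred on the autosomal median of each array. A gene's value is the mean of its probes on the array used. Probe numbers of genes are those of the denser design, so the sparser design can give a value from fewer probes. Of 782 gene names in the stretch, 502 were matched to current symbols by accession, 16 by symbol and 8 by synonym, and 256 were kept as in the files, giving 781 genes. Segments came from penalised least-squares change points (penalty 5 log n). limma 3.58.1 (R 4.3.3, statmod 1.5.0) fitted bins and genes; Python 3.11.15, numpy 2.4.6, pandas 2.3.3, numba 0.67.0 and matplotlib 3.10.9 did the rest. Both steps were tested on simulated data with independent noise. Those data held no probe offsets shared between tumours, so they do not check gene calls that rest on such offsets. Named genes are listed genes called by limma and up to 4 others per list with the largest means, the 10 lowest and 10 highest called genes of 1 sign in all tumours, and genes in or beside segments under 3 Mb (up to 8 each). Others named (Kif1b, Runx3, Sdhb, Casp9, Mtor, Dhrs3, Pramel27, Pramel13) were chosen after their values were seen. The stretch, its gene lists and the tests were chosen with earlier results of these data known. Values of a few genes and of 1 short segment are not reported here. The regression on GC content was added after seeing the data.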

Additional observations from a re-analysis of the deposited data

Results flagged for a closer look

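Of 63 sets of 5 tumour values tested for a value far from the others, 4 stood out; chance alone marks about 1 in 20 sets. AK147482 measured 0.041 in ARF-112, where the other tumours lay between -0.49 and -0.40. Mutyh measured -1.10 in ARF-128, where the others lay between -0.31 and -0.03, and its sparser array gave -0.40. Mycl measured -1.33 in ARF-128, where the others lay between -0.34 and 0.06, and its sparser array gave -0.17. Zbtb17 measured -0.012 in ARF-104, where the others lay between -0.36 and -0.29.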

How the results depend on the processing

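No paired analysis was possible because the tumours were taken as a single group. The mean of the stretch kept its sign under all alternatives run (-0.16 to -0.01; -0.16 to -0.06 without each tumour), and so did its difference from the rest of chromosome 4 (0.03 to 0.13; 0.04 to 0.12 without each tumour). Lost pairs of a bin and a tumour were 2 with normexp (1.17% of all autosomal pairs) and 98 with a threshold of 0.15 (13.9%). Without each tumour they were 5 to 46. Bins lost in at least 3 tumours were 1 with loess (0.321% of autosomal bins) and 16 with the 0.15 threshold (5.46%). Gained pairs were 25 with that threshold (17.8% of all autosomal pairs) and 0 to 5 without each tumour. They were 0 with normexp, probes of both designs, GC regressed out or a threshold of 0.35 (9.97% to 14.1% of all pairs). Bins lower by limma were 0 with normexp, loess or GC regressed out and without each tumour in turn. They were 2 by the sparser ARF-128 array and 3 under a scan-day block, whose estimated correlation over bins was negative (-0.13). Genes lower and higher follow, with the counts over all genes in brackets (1386 and 1624 of 20745 in the main setting). They were 13 and 20 with normexp (480 and 1753) and 6 and 4 with loess (325 and 781). By the sparser ARF-128 array they were 75 and 42 (2386 and 3017), and by both its arrays 92 and 37 (2675 and 2952). With probes of both designs they were 98 and 26 (2486 and 2349), and with GC regressed out 48 and 9 (1300 and 1459). With at least 2 probes they were 30 and 2 (683 and 785 of 11054). Both were 0 with the scan-day block (3 and 3) or segment means (0 and 677). Without each tumour they were 0 to 93 and 0 to 33 (0 to 2759 and 0 to 2848). Of the 40 lower genes, 38 were also called by the sparser ARF-128 array and 9 with normexp. The sparser array replaces only the values of ARF-128, so that overlap is not an independent check of the calls. Listed genes called were 2 with loess, 15 by the sparser ARF-128 array or by both, 16 with probes of both designs, 0 with the scan-day block or segment means, and 0 to 12 without each tumour. With normexp the small losses shrank to -0.55 on the denser ARF-128 array and -0.18 in ARF-112, and 0 tumours were called at the more distal one. Means turned below 0 by segment means in AK007076 (-0.091), AK013916 (-0.086), AK083203 (-0.091), AK135002 (-0.17), Adprhl2 (-0.16), Atp6v0b (-0.086), Atpif1 (-0.085), Cyp4a14 (-0.086), Hes2 (-0.19), Hes3 (-0.19), Hspb7 (-0.29), Kazn (-0.18), Rad54l (-0.086), Spata21 (-0.17), Tnfrsf4 (-0.091), Tspan1 (-0.086), Wnt4 (-0.17) and Zfp691 (-0.086). Means turned above 0 with normexp in AK122383 (0.013), Dvl1 (0.10) and Nbl1 (0.0046), with the sparser ARF-128 array in AK122383 (0.030) and Dnajc11 (0.035), with loess in Dnajc11 (0.025), with probes of both designs in Dvl1 (0.21), Nbl1 (0.030) and Pla2g2f (0.088), and when each tumour was left out in Dnajc11 (-0.11 to 0.0071, above 0 without ARF-128). By segment means all 647 tested genes of the stretch were below 0, so any gene with a mean above 0 turned. The cause of these changes was not tested. Dim tumour signal on the denser ARF-128 array limits its single-probe values, and probe offsets shared between tumours limit genes with few probes.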
